A study of Mus musculus with 19 samples.

Results

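The genes described here are 8 cytochrome P450 genes of the Cyp1a, Cyp2a, Cyp2e and Cyp2f subfamilies (Cyp1a1, Cyp1a2, Cyp2a4, Cyp2a5, Cyp2a12, Cyp2a22, Cyp2e1 and Cyp2f2) and the receptor genes Ahr and Arnt. They were chosen by symbol, and all 10 were found among the 24054 gene symbols of the table. The table holds liver RNA-seq of 3 L-RalyKO mice and 3 control mice, which is fewer per group than the legend of the study gives. All were Raly flox/flox mice of the C57BL/6 strain on chow diet, and tissue was taken 4 weeks after an adeno-associated virus. L-RalyKO mice (columns CRE1 to CRE3) received AAV8.TBG.Cre, in which the hepatocyte promoter TBG drives Cre recombinase. Controls (GFP1 to GFP3), whose label is wild type, received AAV8.TBG.GFP and carry the same floxed allele. Other cells of the liver keep the gene unless the promoter is active in them. Mice were male by the general statement of the methods, and no age is given for these animals in the sources used here. The question is which of these drug-metabolizing genes change when hepatocytes lose Raly, an RNA-binding protein of the hnRNP family.

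Cytochrome P450 enzymes are heme proteins of the endoplasmic reticulum that oxidize drugs, pollutants, steroids and other lipids, with electrons passed on by the reductase POR. AHR is a cytosolic receptor that binds dioxins and related aromatic ligands, moves to the nucleus, pairs with ARNT and activates Cyp1a1 and Cyp1a2 through xenobiotic response elements. In unexposed liver Cyp1a1 is nearly silent, whereas Cyp1a2 is expressed in hepatocytes around the central vein, as is Cyp2e1, the ethanol-oxidizing enzyme. Cyp2f2 marks hepatocytes around the portal vein. Cyp2a5 is the coumarin hydroxylase of mouse liver, and Cyp2a4 is a steroid 15α-hydroxylase that is higher in female liver.

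Values are scaled CPM, in which the authors divided the reads of a gene by an effective library size but not by the length of the gene. Between 28302983 and 38052705 reads per mouse were counted on genes. Raly itself was measured at 6.34, 6.61 and 7.39 in L-RalyKO livers, against 50.1, 48.6 and 46.8 in controls. Transcripts of the Y-linked gene Ddx3y were present in every library (75.2 to 90.9), and Xist, which is transcribed from the inactive X chromosome of females, was at 0.378 or less. The hepatocyte marker Alb had values from 63858 to 71897. Changes were tested with limma on log2(value + 1) over the 11580 genes whose mean reached 1, and adjusted p values are by the Benjamini-Hochberg method over all of them. Fold changes refer to this scale, on which weakly expressed genes appear to change less than they do, except those given for another tool or pseudocount, which are on the scale of that setting. The exact permutation test over mice (two-sided) cannot give a p under 0.1 with 3 mice per group.

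The promoters of the Cyp2a genes are shown first, because they form pairs of near-identical copies with different values. In the mouse genome build NCBIM37 (mm9) with GENCODE vM1 annotation, Cyp2a4, Cyp2a5, Cyp2a22, Cyp2a12 and Cyp2f2 follow each other in this order on chromosome 7, within 826471 bases from 27092209 to 27918679. RefSeq promoter sequences of build GRCm38.p6 were matched for 9 of the 10 genes, and the 250 bases before the transcription start are used here. The windows of Cyp2a4 (chr7:26306942-26307191 on the + strand) and Cyp2a5 (chr7:26835089-26835338 on the + strand) were aligned, and capitals mark bases that differ.
Cyp2a4: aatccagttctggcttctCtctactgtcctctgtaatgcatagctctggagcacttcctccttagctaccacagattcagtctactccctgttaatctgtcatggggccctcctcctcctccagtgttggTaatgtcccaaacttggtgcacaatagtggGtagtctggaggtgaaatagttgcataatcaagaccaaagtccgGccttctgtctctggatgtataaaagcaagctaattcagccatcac
Cyp2a5: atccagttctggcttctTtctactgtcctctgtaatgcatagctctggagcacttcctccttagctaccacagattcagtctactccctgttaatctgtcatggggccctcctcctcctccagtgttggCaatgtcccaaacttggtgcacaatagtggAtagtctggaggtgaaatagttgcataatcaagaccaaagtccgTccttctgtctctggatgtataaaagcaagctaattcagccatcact
Of 249 aligned bases, 245 were identical (98.4%). The windows of Cyp2a12 (chr7:27028840-27029089 on the + strand) and Cyp2a22 (chr7:26939387-26939636 on the - strand) are shown in the same way, and capitals mark substitutions and inserted bases. Bases past the end of the other window are in lower case.
Cyp2a12: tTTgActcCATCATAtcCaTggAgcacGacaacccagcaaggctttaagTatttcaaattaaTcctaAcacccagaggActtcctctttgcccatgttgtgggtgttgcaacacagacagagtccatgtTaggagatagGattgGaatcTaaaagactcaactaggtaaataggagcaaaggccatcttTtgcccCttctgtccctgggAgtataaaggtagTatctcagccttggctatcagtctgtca
Cyp2a22: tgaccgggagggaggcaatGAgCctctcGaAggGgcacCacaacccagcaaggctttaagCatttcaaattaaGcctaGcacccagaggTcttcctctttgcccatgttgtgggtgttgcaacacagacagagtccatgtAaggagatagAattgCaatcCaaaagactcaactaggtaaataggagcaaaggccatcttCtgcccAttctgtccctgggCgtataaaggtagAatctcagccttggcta
Of 232 aligned bases, 213 were identical (91.8%).

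Cyp2a22 was the member that fell. Its values were 7.18, 7.31 and 7.08 in L-RalyKO liver and 13.4, 16.9 and 13.3 in control liver. Every L-RalyKO mouse lay at about the same level and below every control (exact permutation test, p = 0.1, the lowest possible). The mean was 7.19 ± 0.117 against 14.5 ± 2.03 (SD, n = 3 mice each), or 49.5% of the control mean. This is a log2 fold change of −0.91 with an SE of 0.095 and a 95% interval from −1.13 to −0.70 (limma, adjusted p = 0.00174). The gene (ENSMUSG00000091867.1) spans bases 27716650 to 27724405 of chromosome 7 (- strand) and has 1 annotated transcript with 9 exons.

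Its closest copy, Cyp2a12 (ENSMUSG00000060407.5, chromosome 7 from 27814109 to 27821826), was not called. The values of Cyp2a12, a steroid-hydroxylating enzyme, were 474, 480 and 504 in L-RalyKO and 483, 526 and 534 in control liver. These ranges overlapped, and the log2 fold change was −0.08 (95% interval −0.21 to 0.05, adjusted p = 0.437, limma). Reads of Cyp2a22 amounted to 1.52%, 1.52% and 1.40% of the reads of Cyp2a12 in the L-RalyKO mice and to 2.77%, 3.21% and 2.50% in the controls. Both genes of this ratio come from the same library, so it does not depend on the scaling, and it did not overlap between the groups (1.48 ± 0.0670% against 2.82 ± 0.359%, SD, n = 3 each, exact permutation test, p = 0.1). The ratio was formed after the values had been seen. Of the 50-base words of Cyp2a22 transcripts, 20.6% also occur in Cyp2a12, so that the counting could have moved reads between them. How much of either value comes from such reads was not tested.

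Cyp2a5 was higher on average, but the difference was not past the threshold. Its values were 1316, 1046 and 993 in L-RalyKO liver and 658, 1005 and 706 in control liver. The groups overlapped, because control mouse 2 lay above L-RalyKO mouse 3. The mean was 1118 ± 173 against 790 ± 188 (SD, n = 3 each). In log2 terms the difference was 0.52 with an SE of 0.16 and a 95% interval from 0.15 to 0.88 (limma, adjusted p = 0.0974). The interval of a single gene is not adjusted for the number of genes tested. Without control mouse 2 the log2 fold change was 0.70 and the adjusted p was 0.0218 (limma), and the gene was not called in any other setting. Cyp2a5 (ENSMUSG00000005547.8) lies on chromosome 7 from 27620324 to 27628567.

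Cyp2a4, the copy with nearly the same promoter, was close to the limit of detection. It had values of 0.378, 1.04 and 0.921 in L-RalyKO and 1.40, 1.61 and 1.05 in control liver, from 13 to 47 reads per mouse. The groups did not overlap, although the highest L-RalyKO and the lowest control value were almost the same. The log2 fold change was −0.42 (95% interval −0.81 to −0.02, adjusted p = 0.198, limma). The size of this difference depended on the setting, from −0.24 without L-RalyKO mouse 1 to −0.80 with a pseudocount of 0.1 and −0.86 with limma voom, and it was called in none of them. Cyp2a4 (ENSMUSG00000074254.3, chromosome 7 from 27092209 to 27100107) shares 36.5% of its 50-base words with Cyp2a5, and its reads were from 0.0287% to 0.213% as many as those of Cyp2a5. With so few reads, a small share of misassigned Cyp2a5 reads would be as large as the whole value. That share was not tested, and the level of Cyp2a4 is uncertain.

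Between Cyp2a4 and Cyp2f2 the annotation holds 8 cytochrome genes, of which 6 were tested. The other tested one was Cyp2g1, an olfactory form, at 0.30 on the log2 scale (limma, adjusted p = 0.299). Cyp2b19 and Cyp2b23 had no read in any mouse, nor had the 4 other protein-coding genes of the interval in the table (Nlrp9c, Nlrp4a, Nlrp9a and Vmn1r185). Cyp2f2, at the end of the interval, metabolizes naphthalene and styrene. It had values of 1270, 1349 and 1366 in L-RalyKO and 1127, 1266 and 1364 in control liver. The groups overlapped, and the log2 fold change was 0.09 (95% interval −0.09 to 0.26, adjusted p = 0.543, limma). An annotated processed transcript, Gm15883, lies on the opposite strand within Cyp2f2. The libraries were stranded, but whether the counting used strand is not given in the sources used here.

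**Figure D1:**
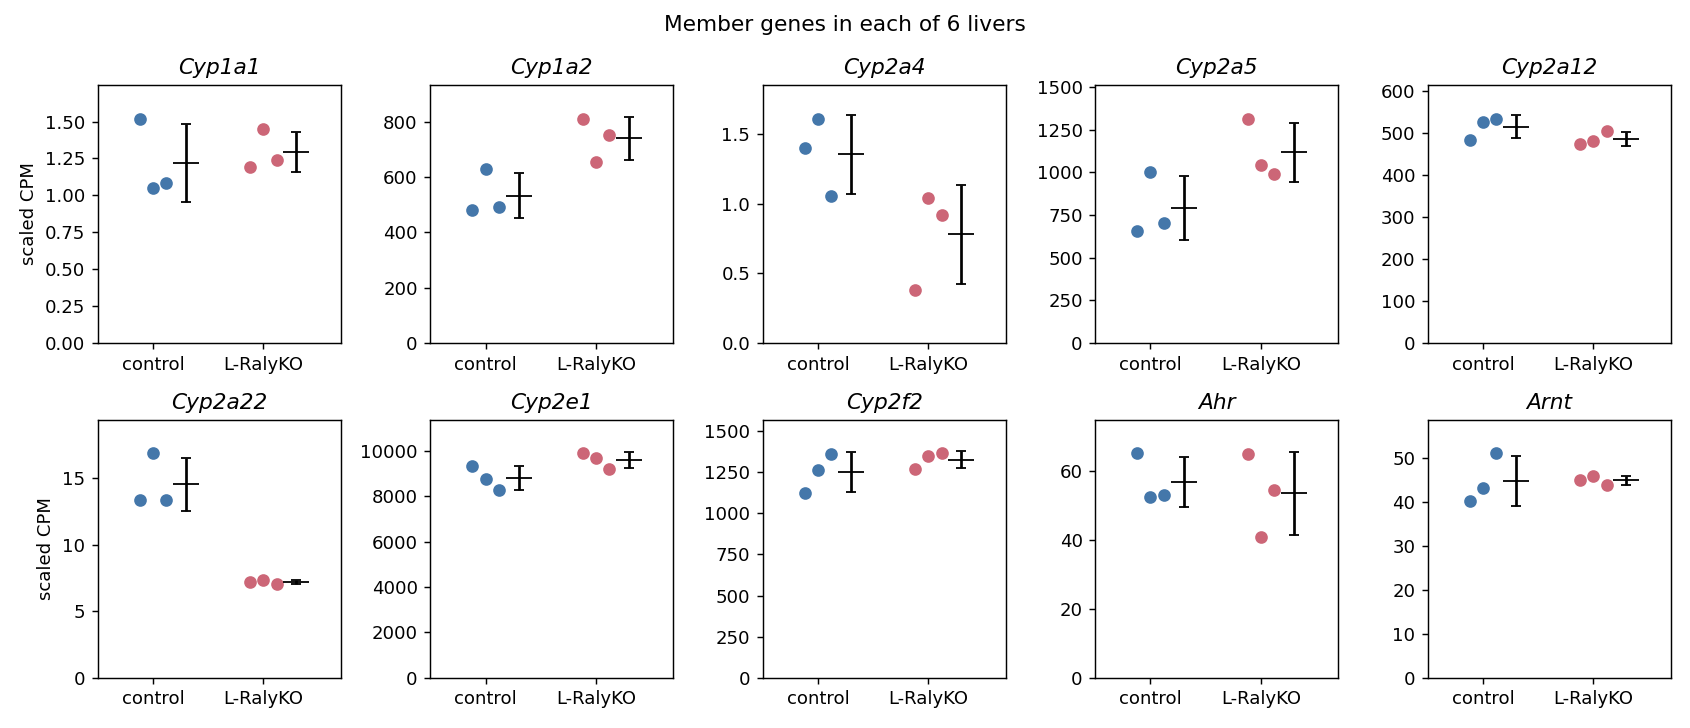
Scaled CPM (vertical axes from 0, a separate scale for each gene) in each of the 3 control livers (blue) and 3 L-RalyKO livers (red), with points for mice 1 to 3 from left to right and the mean and SD in black beside them. Cyp2a22 falls from 14.5 to 7.19 and Cyp1a2 rises from 533 to 739 with no overlap of the mice, whereas the Cyp2a12, Cyp2f2, Cyp1a1, Ahr and Arnt points of the groups overlap.

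Cyp1a2 was the member that rose. Its enzyme demethylates caffeine and activates arylamines. It had values of 811, 656 and 751 in L-RalyKO liver and 479, 628 and 491 in control liver. Each L-RalyKO mouse lay above each control (exact permutation test, p = 0.1), although the gap between L-RalyKO mouse 2 and control mouse 2 was small. The mean was 739 ± 78.5 against 533 ± 82.5 (SD, n = 3 each). In log2 terms the rise was 0.48 with an SE of 0.11 and a 95% interval from 0.22 to 0.74 (limma, adjusted p = 0.0441), or 1.39-fold. This call was near the threshold. The adjusted p was 0.0714 with edgeR's quasi-likelihood test and 0.000421 with DESeq2, both on recovered reads. With limma it was 0.0791 without an intensity trend, 0.0892 with no filter and 0.0843 with the replicate block, and the gene was called in 8 of the 16 alternatives. It ranged from 0.0153 to 0.141 in the 6 limma fits that each left out 1 mouse, and 4 of these did not call the gene. These were the fits without L-RalyKO mouse 1 (0.141), without L-RalyKO mouse 3 (0.109), without control mouse 1 (0.133) and without control mouse 3 (0.0951). The direction was the same in all 16 alternative settings, with log2 fold changes from 0.41 to 0.60.

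Cyp1a1, which encodes the enzyme most strongly induced by AHR ligands, was not called. Its values were 1.19, 1.45 and 1.24 in L-RalyKO and 1.52, 1.05 and 1.08 in control liver, from 30 to 51 reads per mouse. The groups overlapped, and the log2 fold change was 0.05 (95% interval −0.23 to 0.34, adjusted p = 0.85, limma). The pseudocount is about as large as these values and compresses the interval, so it is not set beside that of Cyp1a2, and a difference between the changes of both genes was not tested. Cyp1a2 (ENSMUSG00000032310.3, from 57524744 to 57531462 on the - strand) and Cyp1a1 (ENSMUSG00000032315.5, from 57545420 to 57551629 on the + strand) are neighbours on chromosome 9 and are transcribed away from each other. Their starts are 13958 bases apart in NCBIM37. They share few 50-base words (3.66% of those of Cyp1a1 and 5.10% of those of Cyp1a2).

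The promoters of the pair are shown because Cyp1a1 is the textbook target of AHR, with the xenobiotic response element core GCGTG and the TATA box TATAAA in capitals. The windows are chr9:57697363-57697612 on the + strand for Cyp1a1 and chr9:57683656-57683905 on the - strand for Cyp1a2 (RefSeq, GRCm38.p6).
Cyp1a1: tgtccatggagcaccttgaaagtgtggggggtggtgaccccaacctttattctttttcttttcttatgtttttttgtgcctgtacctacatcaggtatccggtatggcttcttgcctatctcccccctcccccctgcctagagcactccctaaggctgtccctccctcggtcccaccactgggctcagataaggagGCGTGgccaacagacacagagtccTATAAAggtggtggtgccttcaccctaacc
Cyp1a2: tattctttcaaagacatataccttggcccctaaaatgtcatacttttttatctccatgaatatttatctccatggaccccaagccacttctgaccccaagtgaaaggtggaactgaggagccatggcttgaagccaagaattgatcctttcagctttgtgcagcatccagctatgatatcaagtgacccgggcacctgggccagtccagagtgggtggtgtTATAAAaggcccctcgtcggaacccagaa
Both strands were searched for 3 motifs in the 250 bases, and positions are those of the leftmost base of the match, with -1 next to the start. GCGTG was found once in Cyp1a1 (at -54) and once in Arnt (at -29) and in none of the other 7 member promoters. Over all 32851 promoter windows of this length 28.2% hold it. TATAAA was found in 7 of the 9 windows, all but those of Cyp2f2 and Arnt, and in 12.4% of all windows. CCAAT, the core bound by NFY, was found in Cyp2a12 (at -110), Cyp2e1 (at -210 and -68) and Arnt (at -85), and in 33.9% of all windows. In the Cyp2a22 window, unlike that of Cyp2a12, CCAAT was not found. A match of letters is not a bound site, and enhancers outside these windows were not searched.

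The receptor genes were not called. Ahr (ENSMUSG00000019256.10, chromosome 12 from 36182646 to 36219710) was at 64.9, 40.7 and 54.5 in L-RalyKO and at 65.0, 52.4 and 52.9 in control liver. The spread within each group was larger than the difference between them, and the log2 fold change was −0.10 (95% interval −0.46 to 0.25, adjusted p = 0.742, limma). Its sign turned without L-RalyKO mouse 2 (0.07). Arnt (ENSMUSG00000015522.11, chromosome 3 from 95238310 to 95301162) was at 45, 45.9 and 43.8 in L-RalyKO and at 40.1, 43.1 and 51.0 in control liver. The L-RalyKO values lay inside the control range (log2 fold change 0.01, 95% interval −0.18 to 0.20, limma, adjusted p = 0.954).

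Other genes of the receptor pathway were examined in 2 lists. Of 9 genes of the AHR complex and its repressors (among them Ahr, Arnt, the HSP90 genes, and the repressors Ahrr and Tiparp), 7 were tested and 0 were called by limma, edgeR, DESeq2 or limma voom. None had an unadjusted p under 0.05 with limma, and their median log2 fold change was 0.00, as was that of all genes tested (0.00). Hsp90ab1, the most abundant of them, was at 855 ± 28.5 in the knockouts against 825 ± 18.4 in controls (SD, n = 3 each), and Hsp90aa1 was at 195 ± 29.2 against 198 ± 18.2. Of 11 AHR target genes outside Cyp1a, 7 were tested and 0 were called by limma (2 at an unadjusted p under 0.05), while edgeR and DESeq2 called 1 each and limma voom 0. Their median log2 fold change was −0.09. Xdh, the gene of xanthine dehydrogenase, was at 238 ± 6.51 against 207 ± 9.16 (log2 fold change 0.20, adjusted p = 0.0543, limma). It was the gene called by edgeR (adjusted p = 0.0491) and DESeq2 (adjusted p = 0.0269), and limma called it with upper-quartile scaling (adjusted p = 0.0481) and without control mouse 3 (adjusted p = 0.0428). Without L-RalyKO mouse 3, limma called Ugt1a6a (log2 fold change 0.28, adjusted p = 0.0265). Ugt1a6b, a phenol glucuronosyltransferase, was at 361 ± 23.6 against 340 ± 11.3 (adjusted p = 0.463, limma).

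Cyp2e1 was the most abundant member, and its groups overlapped. It had values of 9898, 9708 and 9208 in L-RalyKO and 9347, 8781 and 8298 in control liver. The log2 fold change was 0.13 (95% interval −0.08 to 0.33, adjusted p = 0.446, limma). Cyp2e1 (ENSMUSG00000025479.7, chromosome 7 from 147949638 to 147960874) lies far from the Cyp2a cluster. Its reads were between 0.827% and 0.965% of all reads on genes in a mouse. The 10 members together held 1.32 ± 0.0291% of the reads in the knockouts against 1.22 ± 0.0610% in controls (SD, n = 3 each) and did not overlap (exact permutation test, p = 0.1). Cyp2e1 made up 71.2% to 76.5% of this sum.

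**Figure D2:**
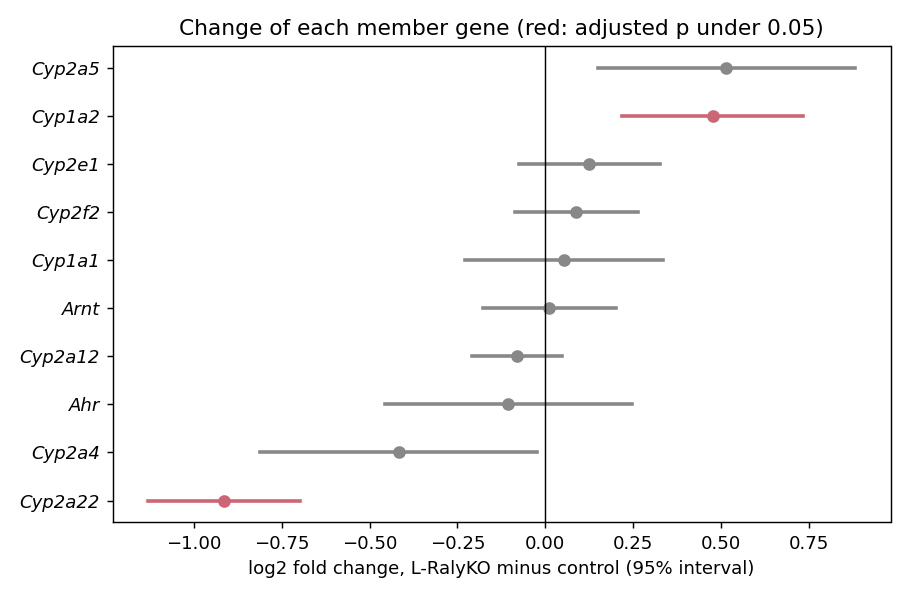
Log2 fold change of each member, L-RalyKO minus control, on the log2(value + 1) scale (horizontal axis), with points for the limma estimate and lines for its 95% interval, ordered by the change. The genes in red, Cyp1a2 at 0.48 and Cyp2a22 at −0.91, have an adjusted p under 0.05, and the other 8 genes do not. The Cyp2a4 value is that of a gene that passed the filter only through the controls.

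All 10 members were tested. Of these, 2 had an adjusted p under 0.05, 1 higher and 1 lower, where 6.55% of all tested genes were called (3.36% higher and 3.19% lower). The values of 3 members (Cyp1a2, Cyp2a22 and Cyp2a4) did not overlap between the groups, and 28.1% of all tested genes did not overlap. Of these 3, Cyp2a4 had reached the mean of 1 only through the controls, so its separation is no support for a fall. The median log2 fold change of the members was 0.03, from −0.91 to 0.52. A list this short gives no result about the members as a whole, and the changes are those of single genes.

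To compare members with each other, values were divided by the length of the longest annotated transcript. In control liver Cyp2e1 had 4821 ± 287 scaled CPM per kilobase (SD, n = 3), and Cyp2f2 (671 ± 63.7), Cyp2a5 (392 ± 93.2), Cyp2a12 (311 ± 16.4) and Cyp1a2 (282 ± 43.6) followed. Control values of Cyp2a12 and Cyp1a2 overlapped, so that their order is not settled. Arnt (10.3 ± 1.31) and Ahr (10.2 ± 1.29) also overlapped. Below them came Cyp2a22 (6.53 ± 0.911), Cyp2a4 (0.790 ± 0.164) and Cyp1a1 (0.465 ± 0.1). In L-RalyKO liver Cyp1a2 (391 ± 41.5) lay above Cyp2a12 (293 ± 9.67) in every mouse. With the median in place of the longest transcript length, Cyp2a5 (991) would pass Cyp2f2 (969) and Ahr (26.9) would pass Arnt (17.1) in control liver.

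**Figure D3:**
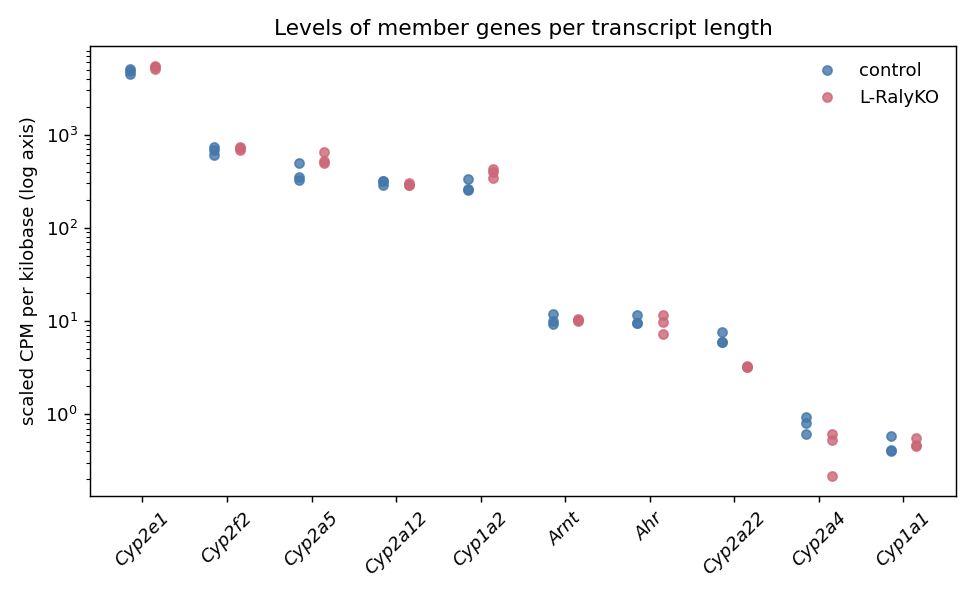
Scaled CPM per kilobase of the longest transcript (log axis) for each member, with 1 point per mouse (control in blue, L-RalyKO in red), ordered by the control mean. Levels run from 4821 for Cyp2e1 to 0.465 for Cyp1a1, and Cyp2a22, at 6.53 in control and 3.23 in L-RalyKO liver, lies far below the other Cyp2a genes except Cyp2a4.

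Partners of the P450 enzymes were examined as a list of 16 genes, of which 15 were tested, 2 rose and none fell. Por, the reductase that supplies all microsomal P450 enzymes with electrons, had values of 948, 966 and 874 in L-RalyKO and 546, 631 and 672 in control liver. The groups were well apart (log2 fold change 0.60, SE 0.081, limma, adjusted p = 0.00531). Fdx1, the ferredoxin of mitochondrial P450 enzymes, was at 71.5 ± 2.23 against 56.6 ± 3.73 (log2 fold change 0.33, adjusted p = 0.0148, limma, and 0.0539 without L-RalyKO mouse 2). The median of the list was 0.00.

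Among 17 regulators of Cyp1a2, Cyp2a and Cyp2e1 in liver, all tested, limma called 3 as higher and 0 as lower, with a median log2 fold change of 0.06. The number called was 4 with edgeR, DESeq2, total count scaling or the replicate block, and 1 without control mouse 1. Hnf4a, a nuclear receptor that maintains hepatocyte genes, had values of 900, 809 and 829 in L-RalyKO and 520, 542 and 680 in control liver. All L-RalyKO mice were higher (log2 fold change 0.55, adjusted p = 0.0155, limma), but the call was lost without L-RalyKO mouse 1 (0.0617), control mouse 1 (0.0509) or control mouse 2 (0.051). Foxa2, a pioneer factor of liver genes, was at 27.7 ± 5.91 against 14.6 ± 1.79 (log2 fold change 0.86, adjusted p = 0.0126, limma, and 0.0501 without control mouse 1). Nr1i2, the gene of the xenobiotic receptor PXR, was at 118 ± 2 against 93.9 ± 3.90 (log2 fold change 0.33, adjusted p = 0.00725, limma). Whether these moved Cyp1a2 or Cyp2a22 was not tested.

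Of the 13 genes of the Cyp2a, Cyp2b, Cyp2f and Cyp2s cluster, 9 were tested and 3 fell. Beside Cyp2a22 these were Cyp2b9 (2.07 ± 1.16 in L-RalyKO and 50.1 ± 14.5 in control liver, adjusted p = 0.000406, limma) and Cyp2b13 (0.0272 ± 0.0264 against 2.12 ± 0.856, adjusted p = 0.00363, limma), both higher in females than in males. Cyp2b13 reached the mean of 1 only through the controls, so it is no support for a fall of the list. It was not tested with a mean of at least 5, where the count is 2, and its adjusted p with no filter was 0.00864 (limma). Among 24 other genes of the CYP1 and CYP2 families, 22 were tested, 2 rose and 2 fell, with a median of −0.12. Cyp2c44 (398 ± 10.9 against 319 ± 17.0) and Cyp2c55 (11.9 ± 0.792 against 8.67 ± 1.05) were the ones that rose, and Cyp2c38 (26.9 ± 5.88 against 47.6 ± 8.44) and Cyp2c37 (247 ± 15.6 against 314 ± 32.7) fell. Their adjusted p values from limma were 0.0123 for Cyp2c44, 0.0365 for Cyp2c55, 0.0257 for Cyp2c38 and 0.041 for Cyp2c37. Cyp2c44 was called in 15 of 16 alternatives, Cyp2c38 in 10 of 16, and Cyp2c37 and Cyp2c55 in 9 of 16 each, both of which lost the call in 5 of the 6 fits that left out 1 mouse. The number called in this list was 7 with DESeq2, 1 without an intensity trend or with no filter, 1 without L-RalyKO mouse 1 or 2, and 2 without L-RalyKO mouse 3 or control mouse 1.

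Because Cyp1a2 and Cyp2e1 are pericentral and Cyp2f2 is periportal, other zoned genes were examined. Of 14 pericentral genes 1 rose and 2 fell, with a median of 0.02. Cyp27a1, a sterol 27-hydroxylase, rose (529 ± 42.3 against 420 ± 4.20), whereas Tbx3 (34.1 ± 3.18 against 52.9 ± 3.91) and Lgr5 (3.77 ± 0.813 against 5.84 ± 0.194), targets of Wnt signalling, fell. The count was 1 in place of 3 without L-RalyKO mouse 2, control mouse 1 or control mouse 2. Tbx3 was called in all 16 alternatives, Cyp27a1 in 12 of 16 and Lgr5 in 7 of 15. Of 14 periportal genes 1 rose and none fell, with a median of 0.15. This was Pck1, of gluconeogenesis (5448 ± 150 against 3185 ± 382, log2 fold change 0.78, adjusted p = 0.00312, limma), which was called in all 16 alternatives. Of the 14 genes, 7 had an unadjusted p under 0.05 with limma, and the number called was 3 with DESeq2 or the replicate block, 2 with upper-quartile scaling and 5 without control mouse 3.

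Since Cyp2a4 is higher in females, sex-dependent genes were also examined. Of 11 male-predominant genes, all tested, 3 rose and none fell (median 0.43). They were Selenbp2 (410 ± 75.0 against 117 ± 35.9), C6 of the complement system (263 ± 11.7 against 187 ± 16.5) and Cyp7b1, an oxysterol hydroxylase (214 ± 17.1 against 160 ± 21.2). Selenbp2 and C6 were called in all 16 alternatives and Cyp7b1 in 8 of 16. Elovl3 was called as lower in 1 of 16, the replicate block (log2 fold change −0.24, adjusted p = 0.0319, limma). Cyp7b1 was not called with that block (adjusted p = 0.0678, limma). Of 16 female-predominant genes, 5 were tested and 2 fell (median −0.24), the Cyp2b9 and Cyp2b13 genes above, or 1 with a mean of at least 5, where Cyp2b13 was not tested. The number called was 3 with no filter, without control mouse 2 or without control mouse 3. With no filter the added gene was Hao2, which was lower (log2 fold change −0.65, adjusted p = 0.0499, limma) and otherwise under the filter. Cyp2c40 went the other way (log2 fold change 0.59, adjusted p = 0.159, limma). It was called as higher without control mouse 2 (log2 fold change 0.86, adjusted p = 0.0227, limma). Without control mouse 3 the added gene was Fmo2, also called as higher (adjusted p = 0.0115, limma). Of the 5 sex chromosome genes, 4 were tested and the Y-linked Eif2s3y was lower (40.0 ± 1.38 against 46.8 ± 0.464, adjusted p = 0.0359, limma). That call was lost in 8 of 16 alternatives, among them all 6 fits that left out 1 mouse (adjusted p up to 0.125).

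In bulk liver, fewer cells of a type and less RNA per cell cannot be told apart. Of the 5 hepatocyte markers (Alb, Apoa1, Ttr, Serpina1c and Hnf4a), limma called Hnf4a alone and DESeq2 also Apoa1 (log2 fold change 0.27, adjusted p = 0.0198), and their summed level was from 83492 to 92350 in controls and from 92444 to 93236 in L-RalyKO mice, just without overlap. Most of this sum is Alb, whose values overlapped between the groups, as did those of Ttr. Apoa1 (6874 to 7260 in L-RalyKO and 5141 to 6430 in control liver), Serpina1c (9394 to 9605 and 8747 to 8948) and Hnf4a were higher without overlap. Of all tested genes, 28.1% did not overlap. The part of the hepatocyte markers in the rise of Cyp1a2 was not tested. Summed levels of the other markers overlapped between the groups. For Kupffer cells and macrophages (5 genes tested) they were from 120.2 to 178 in controls and from 127 to 161 in L-RalyKO mice. For endothelial cells (6 tested) they were from 179 to 187 and from 155 to 198, and for stellate cells (6 tested) from 213 to 237 and from 204 to 269. For cholangiocytes (3 tested) they were from 32.5 to 34.7 and from 32.2 to 41.0, for T and B cells (1 tested) from 7.78 to 9.47 and from 5.98 to 8.63, and for neutrophils (1 tested) from 1.76 to 3.30 and from 1.21 to 2.56. Limma and edgeR called 0 genes of these 6 lists. Of the cholangiocyte list, Sox9 (4.29 to 5.88 in L-RalyKO and 2.46 to 4.05 in control liver) and Krt19 (0.551 to 1.16 and 0.328 to 0.456, under the filter) were higher without overlap, beside the overlapping sum, most of which is Spp1. Sox9 was called with DESeq2 (adjusted p = 0.0277), with the replicate block (limma, adjusted p = 0.0264) and without control mouse 1 (limma, adjusted p = 0.0375), and its part in the members' changes was not tested. In all, 1 gene each of the cholangiocyte and stellate lists had an unadjusted p under 0.05 with limma. No marker of these lists in the table was at 0.

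**Figure D4:**
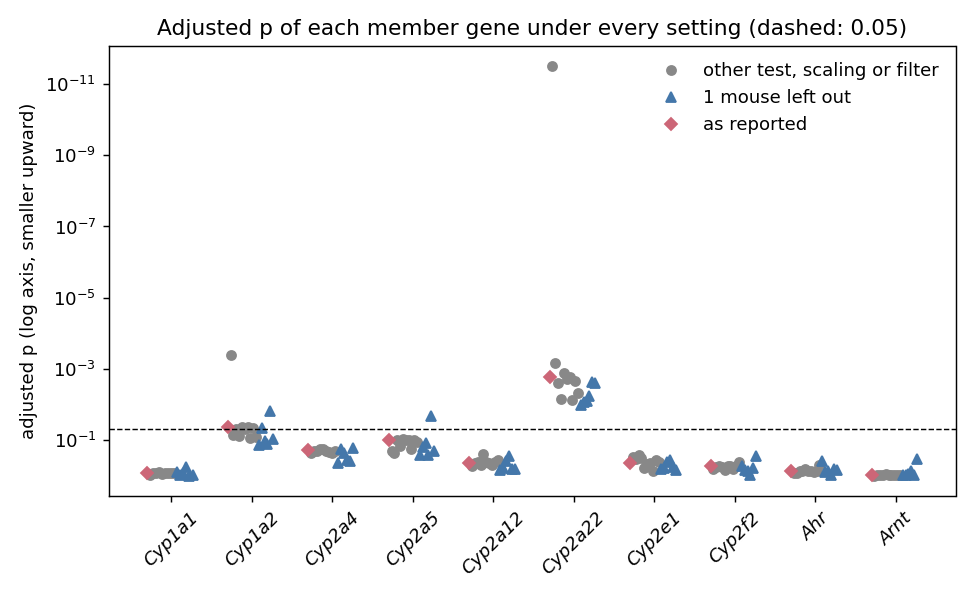
Adjusted p of each member (log axis, smaller p upward) as reported (red diamonds), under another test, scaling, filter or block (grey circles) and in fits that left out 1 mouse (blue triangles), with 0.05 as the dashed line. Cyp2a22 lies above the line in all 16 alternatives (adjusted p from 3.17e-12 to 0.0103), Cyp1a2 in 8 of 16 and Cyp2a5 in 1 of 16.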

How the data were processed

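RNA-seq values of liver from 3 control and 3 L-RalyKO mice were analysed, and columns were matched to samples by the virus and the number in their names. The ATAC-seq and ChIP-seq experiments were not analysed here. The methods name alignment to mm9 by TopHat v2.0.2, and Cufflinks v2.0.2 with Cuffdiff for FPKM. The deposited values are not FPKM but a normalized signal, reads per gene divided by an effective library size (here scaled CPM). In each column 100% of values were whole multiples (within 0.1) of what 1 read is worth, so that reads were recovered, and the scaling factors equalled TMM factors from edgeR 4.0.16. How reads were assigned to genes is not given in the sources used here.

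The comparison used limma 3.58.1 (R 4.3.3, intensity trend, pseudocount 1) and kept genes whose mean reached 1. The design had been written for either counts or normalized values, and the latter applied. Alternatives were edgeR's quasi-likelihood test, DESeq2 1.42.0 and limma voom on recovered reads, no intensity trend, total count and upper-quartile scaling, a pseudocount of 0.1, other filters, a replicate block and leaving out each mouse. The fits were checked on simulated counts with the same dispersion (noise between mice) for every gene and both groups, so the check does not cover unequal noise. Annotation came from GENCODE vM1 on NCBIM37 and promoters from RefSeq on GRCm38.p6, between which no coordinate was converted.

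The members and gene lists were chosen with earlier results of these data known, and lists were written from general knowledge. Genes named from lists are those with an adjusted p under 0.05 (at most 5) or else the 2 most abundant, and cell type markers are given by their sums. Others named (Alb, Apoa1, Serpina1c, Ttr, Krt19, Ugt1a6a, Elovl3, Cyp2c40, Hao2, Fmo2, Ddx3y, Xist and the neighbours of Cyp2a5) were added after values were seen. Same-numbered mice are different animals. The mice are taken as separate animals from the methods, and 3 per group limits precision. Some list genes are counted but not reported here by name.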

Additional observations from a re-analysis of the deposited data

How the results depend on the processing

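Cyp2a22 kept its direction and stayed past 0.05 in all 16 alternatives (log2 fold changes from −1.02 to −0.81, each on the scale of its setting, as are all ranges here), and Raly in all 16 (from −2.84 to −2.63, and from −2.73 to −2.63 with 1 mouse left out). The 2 called members became 1, Cyp2a22 alone, with edgeR's quasi-likelihood test, without an intensity trend (adjusted p of Cyp1a2 0.0791, limma), with no filter on low values (0.0892, limma) and with the replicate block (0.0843, limma), and were from 1 to 3 with 1 mouse left out. Adjusted p values of Cyp1a2 over all its alternatives ran from 0.000421 to 0.141 and those of Cyp2a5 from 0.0218 to 0.261. The cause was not tested. The log2 fold change of Ahr became 0.0743 without L-RalyKO mouse 2 and ran from −0.2565 to 0.0743 with 1 mouse left out. That of Arnt became −7.415e-05 with DESeq2, −0.0221 with total count scaling, −0.00394 without L-RalyKO mouse 2, −0.0621 without control mouse 1 and −0.0117 without control mouse 2, and ran from −0.0621 to 0.1078 with 1 mouse left out. Over all genes, 484 were called with no filter on low values (254 higher, 230 lower), and from 332 to 813 with 1 mouse left out (168 to 454 higher, 164 to 359 lower). Of 288 recounts of the gene lists, 251 were within 1.5 times the reported count and 37 were not. The 251 include every recount of 0 for a list whose reported count was 0, and some of these lists had 1 tested gene. Deviations of same-numbered mice had correlations of 0.07, −0.02 and 0.02, and not every mouse correlated best with its own number. Whether same-numbered mice shared a litter or a batch cannot be told from these values, with 3 mice per group. With the block, 1 member was called. Under a mean value of at least 5, Cyp1a1 and Cyp2a4 were not tested, and their 13 to 51 reads limit what can be said of them.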
